A study of Homo sapiens with 2 samples.

Results

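The acyl-CoA thioesterases (the ACOT family) were examined in Huh7, an established human hepatocellular carcinoma cell line. The family was taken as 9 genes found by symbol in the deposited tables, out of 19927 gene rows: ACOT1, ACOT2, ACOT4, ACOT7, ACOT8, ACOT9, ACOT11, ACOT12 and ACOT13. They were chosen by gene name with the ratio of ACOT12 between these same libraries already known, so the values below are a description. One library came from Huh7 cells with a control hairpin (shControl, genotype given as WT) and 1 from Huh7 cells with the hairpin shPPIL1#1 (genotype given as PPIL1 knockdown), called shPPIL1 here. Both cultures were kept in DMEM with 10% fetal bovine serum. PPIL1 is a cyclophilin-type prolyl isomerase of the spliceosome, and the design asks how its depletion alters expression. Each group has 1 library and 1 hairpin, so there is no replicate check, no test between conditions and no p-value. Intervals in parentheses are exact 95% intervals that cover counting error only.

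Acyl-CoA thioesterases split a fatty acyl-CoA into the free acid and coenzyme A, the reverse of the step catalysed by acyl-CoA synthetases. They set the balance of free acids, acyl-CoA and coenzyme A in cytosol, mitochondria and peroxisomes, and in liver they bear on fatty acid oxidation and lipid synthesis. The type I enzymes (here ACOT1, ACOT2 and ACOT4) have an alpha/beta-hydrolase fold, while the type II enzymes (the other 6) are built on the hotdog fold. ACOT11 and ACOT12 also carry a lipid-binding START domain.

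Depth was near equal, with 41015345 counted reads in shControl and 41165401 in shPPIL1. PPIL1 had 1505 reads in shControl and 104 in shPPIL1, a ratio of 0.0679 (0.0551 to 0.0829), the direction of the labels. A ratio is the scaled count in shPPIL1 over that in shControl throughout. Genes needed 1 CPM (the read count scaled to library size) in at least 1 library to be kept, which held for 12540 genes and for all 9 members. Of 10 hepatocyte markers, 10 were kept, with a summed 10964 FPKM (fragments per kilobase of transcript, scaled to library depth) in shControl and 11375 in shPPIL1. The other marker lists were those of cholangiocytes (4 of 5 kept, summed FPKM 499.5 and 500.4), stellate cells or fibroblasts (2 of 6, 2.25 and 2.57), endothelium (1 of 5, 1.62 and 1.41) and immune cells (3 of 7, 244.1 and 200.7). KRT7, KDR, CD163 and MS4A1 had 0 reads in both libraries. Of the stellate or fibroblast markers, COL1A1 had 415 and 470 reads in shControl and shPPIL1, COL3A1 16 and 48, ACTA2 20 and 15, PDGFRB 3 and 10, DCN 2 and 4, and LRAT 2 and 0. Of the immune markers, LYZ had 223.4 and 180.8 FPKM, CD68 19.5 and 18.2, and CD14 1.22 and 1.54. PTPRC had 4 and 10 reads and CD3E 1 and 2. Both cultures were of the Huh7 line, so the sums are levels of marker genes and not shares of cell types. Whether any other cells were present was not tested. In bulk RNA, fewer cells of a type and less RNA per cell cannot be told apart.

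Of the 9 members, 1 was at least 2-fold higher in shPPIL1 with an interval excluding 1 (ACOT12), against 0.526% of all kept genes, and 0 were at least 2-fold lower, against 0.518%. Taking the interval alone, ACOT12 and ACOT4 were higher and ACOT11 was lower, against 24.6% of kept genes higher and 26.4% lower. The intervals of the remaining 6 included a ratio of 1. The median log2 ratio of the members was 0.01, and that of all kept genes was -0.00. Reads of the 9 genes summed to 8984 in shControl and 8988 in shPPIL1, a ratio of 0.983 (0.954 to 1.01). The summed level of the family was thus within counting error of equal, and the members that differed were among the less abundant ones.

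**Figure D1:**
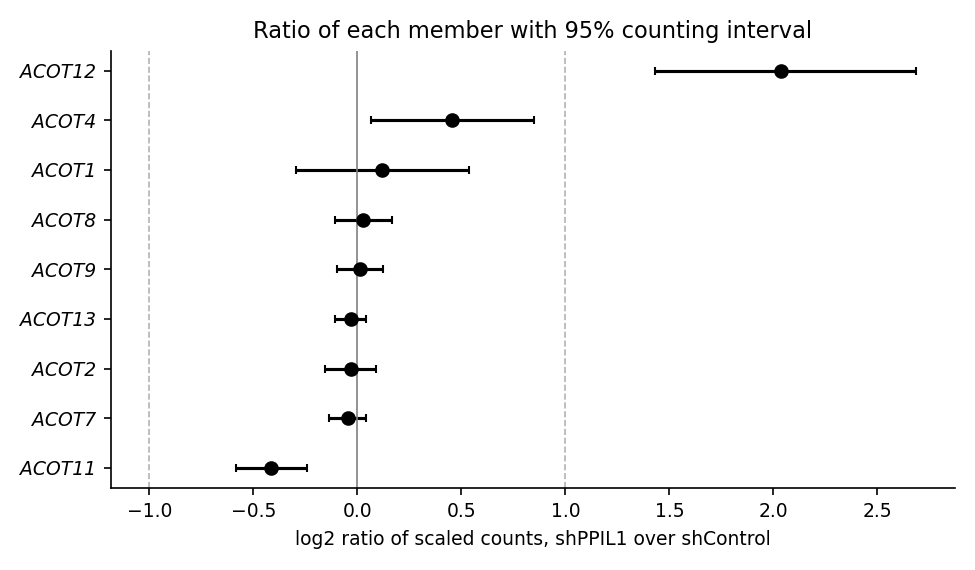
Log2 ratio of scaled counts, shPPIL1 over shControl, for each of the 9 members (points, 1 library per group) with exact 95% counting intervals (bars). Dashed lines mark 2-fold. ACOT12 lies at 2.04, ACOT4 at 0.46 and ACOT11 at -0.41, and the bars of the other 6 cross 0.

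ACOT12, which hydrolyses acetyl-CoA in the cytosol of liver cells, had 28 reads in shControl and 117 in shPPIL1. Per length these were 0.213 FPKM (0.142 to 0.308) and 0.888 FPKM (0.735 to 1.06), so the intervals of the 2 libraries did not overlap. The ratio was 4.11 (2.70 to 6.44), a log2 ratio of 2.04 (1.43 to 2.69). ACOT12 had the 11th highest ratio of the 12540 kept genes. It stood at 0.687 CPM in shControl and 2.82 CPM in shPPIL1, so it passed the filter through shPPIL1 alone. Of the 169 genes kept in that way, 27.2% were at least 2-fold higher. Among 1441 kept genes within 2-fold of its mean CPM, 38 were at least 2-fold higher, 33 at least 2-fold lower, and 4 had a higher ratio than ACOT12. The genes of that set closest to it in log2 ratio over the 2 libraries were PIWIL4, a Piwi protein (log2 ratio 2.10), NAIP, an inhibitor of apoptosis with near-identical copies in the genome (2.29), and NR3C2, the mineralocorticoid receptor (1.72).

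**Figure D2:**
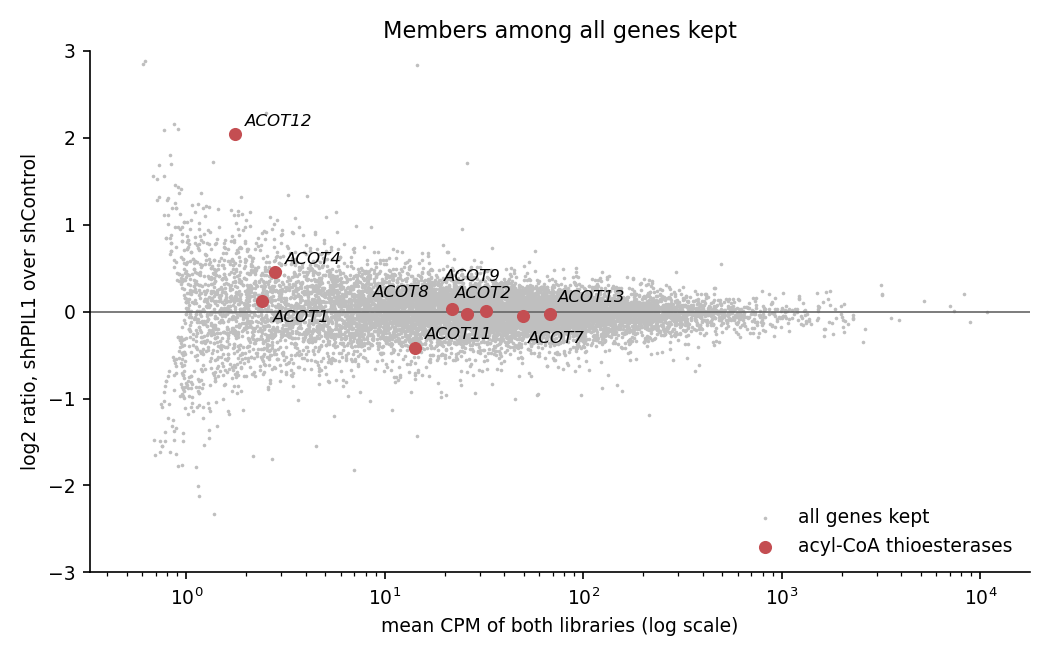
Log2 ratio, shPPIL1 over shControl, against the mean CPM of the 2 libraries (log scale) for all 12540 kept genes (grey) and the 9 members (red). 8 genes beyond a log2 ratio of 3 in either direction are not drawn. ACOT12, at a mean of 1.75 CPM, lies above nearly all genes of like abundance, while the other 8 members lie between -0.41 and 0.46.

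ACOT11, the other member with a START domain, is known for a role in brown fat and is induced by cold in mice. It had 658 reads in shControl and 503 in shPPIL1, or 3.39 FPKM (3.14 to 3.66) and 2.58 FPKM (2.36 to 2.82). The ratio was 0.751 (0.667 to 0.845), a log2 ratio of -0.41, and 95.3% of kept genes had a higher ratio. The START-domain pair thus differed in opposite directions. ACOT11 was 15.9-fold above ACOT12 in FPKM in shControl and 2.91-fold above it in shPPIL1. In reads it was 23.5-fold and 4.30-fold above. The folds in FPKM depend on the lengths behind it, 4727 bases for ACOT11 and 3200 for ACOT12. The main GENCODE transcripts have 6369 and 2086 bases. The summed FPKM of the pair was 3.61 in shControl and 3.47 in shPPIL1. Their summed reads were 686 and 620, a ratio of 0.888 (0.795 to 0.991).

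ACOT12 lies on chromosome 5 from 81330005 to 81394179 on the minus strand (GENCODE 29, GRCh38), with 15 exons in its longest coding transcript. ACOT11 lies on chromosome 1 from 54542257 to 54639192 on the plus strand, with 17 exons. The promoter windows of this pair, whose ratios went opposite ways, are printed for comparison from RefSeq (GRCh38.p14), from 250 bases before to 50 after the start and 5′ to 3′ on the gene's strand. The ACOT12 window is chr5:81394085-81394384 (minus strand) and the ACOT11 window chr1:54547978-54548277 (plus strand). Capitals mark the GC box GGGCGG on either strand (CCGCCC when reversed), with overlapping matches merged.

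ACOT12 promoter: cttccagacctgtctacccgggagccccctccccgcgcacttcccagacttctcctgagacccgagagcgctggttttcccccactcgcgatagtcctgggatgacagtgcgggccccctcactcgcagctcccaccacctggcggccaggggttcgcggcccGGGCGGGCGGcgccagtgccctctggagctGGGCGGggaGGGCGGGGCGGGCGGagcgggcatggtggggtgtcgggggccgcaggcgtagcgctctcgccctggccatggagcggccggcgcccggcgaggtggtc

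ACOT11 promoter: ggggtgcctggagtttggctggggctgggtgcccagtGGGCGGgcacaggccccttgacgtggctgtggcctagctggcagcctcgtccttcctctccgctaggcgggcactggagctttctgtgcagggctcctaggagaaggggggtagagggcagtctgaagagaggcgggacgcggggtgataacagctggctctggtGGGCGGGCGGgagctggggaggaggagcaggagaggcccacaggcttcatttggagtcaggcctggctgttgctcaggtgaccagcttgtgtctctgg

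The ACOT12 window held 6 GC boxes, 5 of them overlapping another, and a GC content of 74.7%. The ACOT11 window held 3, 2 of them overlapping, with a GC content of 66.3%. Of 35116 promoter windows in the table, 45.0% held at least 1 GC box, and the median GC content was 58.7%. The nuclear receptor half-site AGGTCA (or TGACCT; 13.8% of all windows), the CCAAT box (CCAAT or ATTGG; 34.6%), TATAAA (or TTTATA; 11.5%) and the E-box CACGTG (7.26%) each had 0 matches in both windows. Of the members, 8 of 9 were in the promoter table, with ACOT1 not among them. These matches describe letters in a window and were not tested against expression.

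Genes beside and across ACOT12 had ratios between 0.960 and 1.23. The upper end of ACOT12 is followed by SSBP2 (223 and 218 reads, ratio 0.960, 0.793 to 1.16) and ATG10, an autophagy conjugation enzyme (610 and 654 reads, ratio 1.05, 0.942 to 1.18). On the other side lie CKMT2, a mitochondrial creatine kinase (28 and 28 reads), and ZCCHC9, a zinc-knuckle gene on the opposite strand. ZCCHC9 had 1207 reads in shControl and 1509 in shPPIL1, a ratio of 1.23 (1.14 to 1.33). In RefSeq, ACOT12 runs on to 81308609 and shares 4689 bases of its span with ZCCHC9, whereas the GENCODE genes do not overlap. The gene length behind the deposited FPKM of ACOT12 was 3200 bases, against 2086 in its longest GENCODE transcript. Whether reads from ZCCHC9 entered the count of ACOT12 was not tested, since the strand setting of the counting is not given in the sources used here.

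ACOT11 also shares exon sequence with a gene on the other strand, FAM151A, over 760 bases or 7.78% of its GENCODE exon bases. FAM151A was higher in shPPIL1, with 1783 and 2056 reads (ratio 1.13, 1.06 to 1.21), the direction opposite to that of ACOT11. ACOT8 shares 35.3% of its exon bases with SNX21, a sorting nexin gene (279 and 312 reads, ratio 1.10, 0.932 to 1.30), and ACOT13 shares 4.67% with C6orf62 (4969 and 4890 reads, ratio 0.967, 0.929 to 1.01). Exons of ACOT7 and ACOT13 are also crossed by antisense genes, over 20.3% and 7.62% of their exon bases. Without the strand setting, reads from such overlaps cannot be told apart.

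The type I genes ACOT1, ACOT2 and ACOT4 stand in a row on the plus strand of chromosome 14, next to ACOT6, a further type I gene outside the 9. ACOT4, a peroxisomal enzyme, lies from 73591706 to 73596496 and has 3 exons. It had 96 reads in shControl and 134 in shPPIL1, or 1.60 FPKM (1.29 to 1.95) and 2.22 FPKM (1.86 to 2.63). These level intervals overlapped, although the interval of the ratio itself, 1.37 (1.05 to 1.80), excluded 1. ACOT6 had 16 reads in shControl and 8 in shPPIL1, below 1 CPM in each, and a ratio of 0.491 (0.182 to 1.22) that included 1. HEATR4, which lies on the opposite strand across the row in RefSeq, had 12 and 10 reads. In RefSeq the span of ACOT1 begins at 73490933 and shares 2462 bases with RIOX1, a gene on the same strand. RIOX1 had 0 reads in shControl and 1 in shPPIL1. Whether reads from RIOX1 entered the count of ACOT1 was not tested.

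ACOT1, a cytosolic long-chain thioesterase, lies from 73537114 to 73543794, and ACOT2, its counterpart in the mitochondrial matrix, from 73567620 to 73575658. Their coding sequences were identical at 1253 of 1266 aligned bases (99.0%), and ACOT2 has 186 further bases at its 5′ end. The last 469 bases of the ACOT2 coding sequence (984 to 1452) had no difference from ACOT1. Of 162 windows of 100 bases in the ACOT1 transcript, 34.0% were found letter for letter in ACOT2, and 0 windows of the other 7 members were found in a transcript of another gene. The pair is shown over the 60 aligned coding bases with the most differences, to show how little separates reads of the 2 genes. Positions 363 to 422 of ACOT1 and 549 to 608 of ACOT2 are given, 5′ to 3′ from GENCODE 29, with the 4 differences in capitals.

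ACOT1: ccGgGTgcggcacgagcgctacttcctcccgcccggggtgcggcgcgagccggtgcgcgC

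ACOT2: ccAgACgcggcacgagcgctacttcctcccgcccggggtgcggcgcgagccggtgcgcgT

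ACOT1 had 94 reads in shControl and 104 in shPPIL1, or 1.09 FPKM (0.877 to 1.33) and 1.20 FPKM (0.977 to 1.45). Its ratio was 1.09 (0.814 to 1.45). ACOT2 had 1070 and 1065 reads, or 18.5 FPKM (17.4 to 19.6) and 18.3 FPKM (17.2 to 19.5), a ratio of 0.978 (0.898 to 1.07). The levels of each gene overlapped between the libraries. Summed, to set aside how reads common to both were assigned, they had 1164 and 1169 reads, a ratio of 0.987 (0.909 to 1.07). ACOT2 was 17.0-fold (shControl) and 15.3-fold (shPPIL1) above ACOT1 in FPKM, and 11.4-fold and 10.2-fold above it in reads. How the authors counted reads that match both genes is not given, so these differences are uncertain. Those in FPKM also depend on the lengths behind it, 1412 bases for ACOT2 and 2112 for ACOT1. The main GENCODE transcripts have 1774 and 1713 bases.

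**Figure D3:**
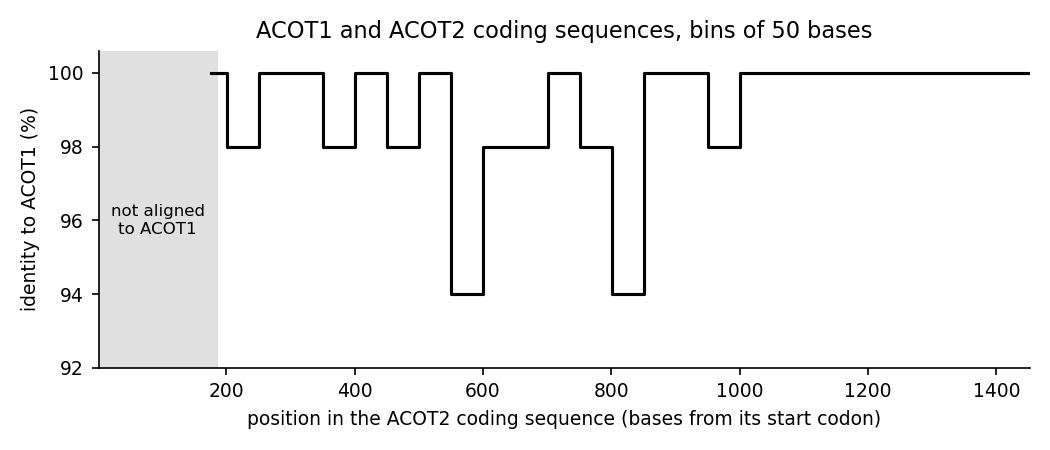
Identity of the ACOT1 and ACOT2 coding sequences in bins of 50 bases (line, in percent) along the ACOT2 coding sequence, counted in bases from its start codon. Grey marks the first 186 bases, which have no counterpart in ACOT1. Identity stays at 94% or more in every aligned bin, and the last 469 bases are the same.

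The remaining 4 type II genes, ACOT7, ACOT8, ACOT9 and ACOT13, had ratios between 0.969 and 1.02. ACOT7, a cytosolic long-chain thioesterase best known in brain, had 2061 reads in shControl and 2033 in shPPIL1, or 33.4 FPKM (31.9 to 34.8) and 32.8 FPKM (31.4 to 34.3). Its ratio was 0.969 (0.911 to 1.03). ACOT7 alone made up 32.1% of the family's summed FPKM in shControl and 31.3% in shPPIL1. ACOT8, a peroxisomal thioesterase of broad specificity, had 877 and 911 reads, or 22.2 FPKM (20.7 to 23.7) and 22.9 FPKM (21.5 to 24.5), a ratio of 1.02 (0.929 to 1.12). ACOT13, a small thioesterase found at mitochondria that binds phosphatidylcholine transfer protein, had 2789 and 2776 reads, or 16.2 FPKM (15.6 to 16.9) and 16.1 FPKM (15.5 to 16.7), a ratio of 0.978 (0.928 to 1.03). ACOT9, a mitochondrial thioesterase, had 1311 and 1345 reads, or 7.49 FPKM (7.09 to 7.91) and 7.66 FPKM (7.25 to 8.08), a ratio of 1.01 (0.933 to 1.09). For each of these 4 genes the level intervals overlapped between libraries, and the intervals of the ratios lay between 0.911 and 1.12.

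The 4 genes lie apart in the genome (GENCODE 29, GRCh38). ACOT7 is on chromosome 1 from 6264269 to 6394391 (minus strand), ACOT8 on chromosome 20 from 45841721 to 45857406 (minus), ACOT9 on the X chromosome from 23702253 to 23766475 (minus) and ACOT13 on chromosome 6 from 24667035 to 24705065 (plus). The main coding transcript has 9 exons in ACOT7, 6 in ACOT8, 16 in ACOT9 and 3 in ACOT13.

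The order of the FPKM levels was the same in both libraries. It ran from ACOT7 through ACOT8, ACOT2, ACOT13, ACOT9, ACOT11, ACOT4 and ACOT1 to ACOT12. In shControl all neighbours in this order had intervals apart from each other except ACOT4 and ACOT1. In shPPIL1 the intervals of ACOT11 and ACOT4 overlapped, as did those of ACOT1 and ACOT12. These intervals do not cover the gene lengths behind the deposited FPKM, on which the order and the family shares depend. Against the main GENCODE transcript, the length was shorter, among others, for ACOT2 (1412 against 1774 bases), ACOT4 (1465 against 2362) and ACOT11 (4727 against 6369). It was longer, among others, for ACOT1 (2112 against 1713), ACOT9 (4267 against 3117) and ACOT12 (3200 against 2086). The order under other lengths was not tested. The 4 highest genes held 86.8% of the family's summed FPKM in shControl and 86.1% in shPPIL1, and the type I genes held 20.3% and 20.8%. ACOT12 made up 0.205% in shControl and 0.848% in shPPIL1. It stayed the lowest member by FPKM in both libraries. By reads in shPPIL1, ACOT12 with 117 stood above ACOT1 with 104.

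**Figure D4:**
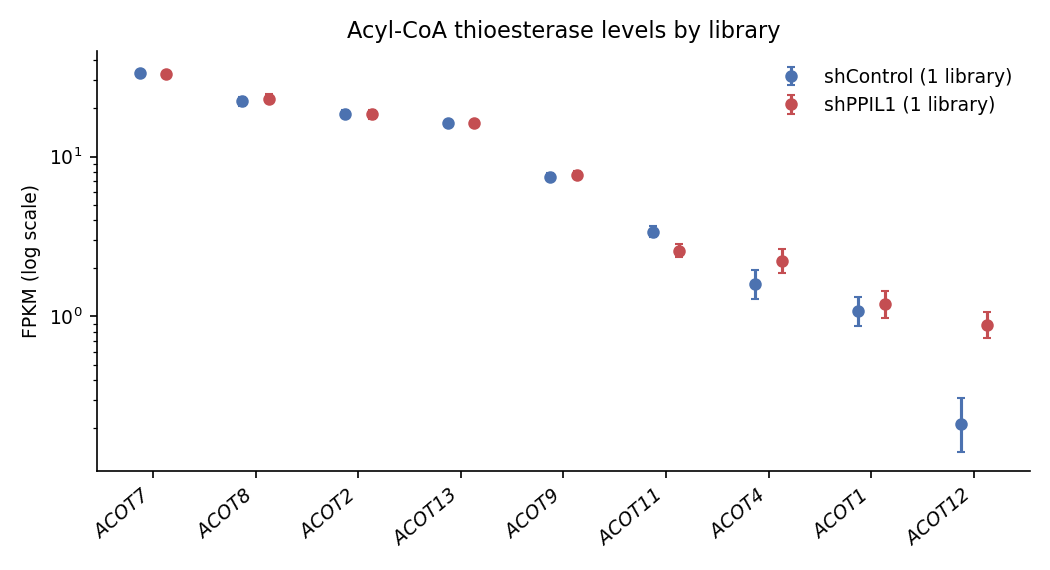
FPKM of each member (log scale) in shControl (blue) and shPPIL1 (red), 1 library each, in the order of the shControl levels. Bars are exact 95% Poisson intervals of the reads. ACOT12 moves from 0.213 to 0.888 and ACOT11 from 3.39 to 2.58, while the 4 highest genes overlap between the libraries.

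A 6-base motif, GATCAT, had been picked out in an earlier search of these same libraries, and it was looked up in the main transcript of each member (the given strand only). It stood in the coding sequence or 3′ UTR of 8 of the 9 members, all but ACOT8, and in 46.6% of 12110 kept genes with a complete coding transcript. The members with the motif in the 3′ UTR were ACOT1, ACOT2, ACOT9, ACOT11 and ACOT13 (5 of 9, against 23.8% of kept genes). Of these ACOT11 was lower, while ACOT9, with 3 copies there, had a ratio of 1.01. In the coding sequence it stood in 6 of 9 members (ACOT1, ACOT2, ACOT4, ACOT7, ACOT11 and ACOT12), against 31.0% of kept genes. ACOT4, ACOT12 and ACOT7 carried it there alone, of which the first 2 were higher and ACOT7 had a ratio of 0.969, and ACOT11, which was lower, carried a coding copy too. Windows of 30 bases around the motif (in capitals) are shown for the 3 members whose ratio interval excluded 1, 1 each.

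ACOT12 coding sequence: ctaactgaacaaGATCATgtggaacataat

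ACOT4 coding sequence: acccttcccaggGATCATtgacatctttgg

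ACOT11 3′ UTR: ttagtatttattGATCATtatcgagcatgg

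Carriers of the motif were thus found among members that were higher, lower and near equal. Its part in the ratios was not tested.

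Genes of the surrounding pathways were described from 7 lists, against the same background of 24.6% of kept genes higher and 26.4% lower with an interval excluding 1. In 0 of the 7 lists did a kept gene reach 2-fold in either direction. At 2-fold with an interval excluding 1, the shares over all kept genes were 0.526% higher and 0.518% lower. With shares this small, 0 in short lists says little. Other thioesterases and acyl-CoA hydrolases had 3 of 13 kept genes higher and 4 lower, with a median log2 ratio of -0.04. BAAT, a relative of the type I enzymes that conjugates bile acids to glycine or taurine, had 276 and 389 reads, a ratio of 1.38 (1.18 to 1.62). NUDT19, a coenzyme A diphosphatase, had a ratio of 1.23 (1.14 to 1.34). THEM6, a hotdog-fold relative, was lower at 453 and 331 reads (ratio 0.718, 0.621 to 0.829), as was FASN, the fatty acid synthase (ratio 0.857, 0.844 to 0.870).

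Acyl-CoA synthetases, which catalyse the opposing reaction, had 2 of 16 kept genes higher and 6 lower (median -0.04). The lower ones included ACSL4, which prefers arachidonate (ratio 0.845, 0.823 to 0.868), and ACSS2, the cytosolic acetyl-CoA synthetase (0.851, 0.814 to 0.890). ACSS2 makes acetyl-CoA and ACOT12 hydrolyses it, and the ratios of the 2 genes went in opposite directions. A link between them was not tested. ACSF2 and ACSF3 were higher, at 1.08 (1.02 to 1.14) and 1.12 (1.02 to 1.24). In acetyl-CoA and acetate metabolism, 6 of 16 genes were higher and 7 lower (median -0.02). MLYCD, which turns malonyl-CoA back to acetyl-CoA, had 599 and 354 reads (ratio 0.581, 0.508 to 0.663). ACACB, the acetyl-CoA carboxylase at mitochondria, which makes malonyl-CoA, had 449 and 656 reads (ratio 1.44, 1.27 to 1.62). MPC2, a subunit of the mitochondrial pyruvate carrier, had a ratio of 1.15 (1.12 to 1.17), and ACAT2, the cytosolic thiolase, 0.821 (0.800 to 0.842).

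Coenzyme A synthesis and acyl-CoA binding genes had 2 of 17 higher and 8 lower (median -0.03). ACBD5, a peroxisomal acyl-CoA binding protein, was lowest with 18746 and 12491 reads (ratio 0.655, 0.640 to 0.670), followed by SLC25A42, the mitochondrial coenzyme A carrier (0.818, 0.737 to 0.907). DBI, the acyl-CoA binding protein of the cytosol, and ACBD6 were higher by small factors, 1.05 (1.02 to 1.08) and 1.09 (1.01 to 1.17). Mitochondrial fatty acid oxidation had 7 of 20 genes higher and 1 lower (median 0.05). ECI2, an enoyl-CoA isomerase, had a ratio of 1.21 (1.15 to 1.28), HADHB, the thiolase subunit of the trifunctional protein, 1.14 (1.11 to 1.18), and the gene that was lower, ETFA, an electron transfer flavoprotein subunit, 0.929 with 15563 and 14709 reads.

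Peroxisomal lipid oxidation had 4 of 17 kept genes higher and 6 lower (median -0.06). CROT, the carnitine octanoyltransferase that exports chain-shortened acyl groups, had 565 and 790 reads (ratio 1.37, 1.23 to 1.53), close in size to the ratio of the peroxisomal ACOT4. PHYH, the phytanoyl-CoA hydroxylase, had a ratio of 1.06 (1.03 to 1.09), HSD17B4 0.895 (0.870 to 0.920) and ACOX2, an oxidase of branched chains and bile acid precursors, 0.812 (0.707 to 0.932). PPAR alpha, the fatty acid receptor under which several thioesterases are induced, and its target genes had 5 of 14 kept genes higher and 5 lower (median -0.01). RXRA, its partner receptor, had a ratio of 1.23 (1.17 to 1.30). TXNIP had a ratio of 0.719 (0.621 to 0.831), and CIDEC, a lipid droplet protein, 0.804 (0.702 to 0.919). Some genes of this list, among them ACSL1 and CPT1A, stand in another of the 7 as well, so the lists are not independent.

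**Figure D5:**
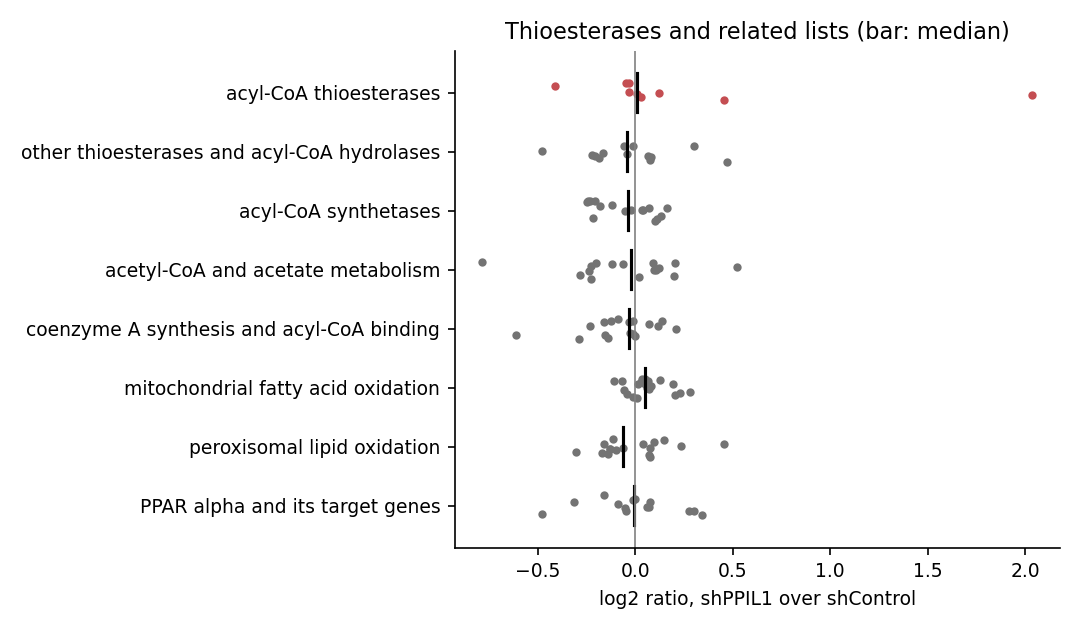
Log2 ratio, shPPIL1 over shControl, of each kept gene (points) in the thioesterase family (red) and in 7 related lists (grey), with list medians as black bars. Points are spread vertically for legibility. Medians lie between -0.06 and 0.05, and ACOT12 at 2.04 lies outside the range of every list, the most extreme genes of which are MLYCD at -0.78 and ACACB at 0.52.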

How the data were processed

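Polyadenylated RNA of 2 Huh7 cultures was sequenced, 1 library per group. The authors deposited raw counts per gene and, per library, FPKM values. Per the submitters' processing notes the build was hg38. Aligner, counter, annotation and strand setting were not given in the sources used here. Counts divided by library total and FPKM gave gene lengths that were whole numbers (tolerance 0.001) in 99.9% of expressed genes. The count table held 7 further columns that match no label; none was used.

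Counts were scaled with TMM in edgeR 4.0.16 (R 4.3.3; factors 0.993 and 1.01). Genes at 1 CPM in at least 1 library were kept. Ratios carry exact 95% Clopper-Pearson intervals and levels exact Poisson intervals. Both are computed from the reads of single libraries and cover counting error only, and they treat each read as an independent molecule, which PCR copies are not. The ratio, interval and call steps were tested on simulated counts that took the scaling of the real libraries as given, so the scaling itself was not tested. The main transcript was the longest complete coding sequence in GENCODE 29, and coding sequences were aligned globally. All 9 members matched RefSeq by symbol. The members and lists were chosen with earlier results of these data known. Named genes are the members, PPIL1, ACOT6, BAAT, up to 2 higher and 2 lower genes per list by the interval bound nearest 1, genes beside or overlapping members, and the 3 most like ACOT12. Of the genes this rule names, 1 is not reported here. Alternatives were DESeq2 1.42.0 size factors, library totals, upper quartile, other filters, other call folds and log2(FPKM + 1 or 0.1).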

Additional observations from a re-analysis of the deposited data

How the results depend on the processing

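Of 119 alternative values over 19 results, 114 stayed within the counting interval of the reported value or, for counts of members, within 1.5 times it. The filter does not enter the scaling or the ratio of a member. Member ratios under other filters were thus the same by construction and check nothing. Scaling moved member log2 ratios by at most 0.02. The log2 ratio of ACOT12 was 0.64 as a difference of log2(FPKM + 1), where the pseudocount exceeds its level in both libraries. At 5 CPM or more, 6 members were left, without ACOT1, ACOT4 and ACOT12, and 0 were at least 2-fold higher. With the interval alone, 2 members were higher and 1 was lower. The mean of the members' log2 ratios was 0.24, against a median of 0.01, and the median was -0.01 without ACOT12. Counts over all genes follow the filter and the fold: 377 higher and 319 lower at 2-fold without a filter, 7 and 11 at 5 CPM, and 253 and 279 at 1.5-fold with the reported filter, which gave 66 and 65 at 2-fold. No paired analysis was possible because each group has 1 library, and no library could be left out. Depth limits ACOT12 most, with 28 reads in shControl, then ACOT1 and ACOT4 at about 100 reads per library.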

Other observations

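Among listed genes that stayed below 1 CPM in both libraries, chosen here after their values were seen, PDK4, a kinase that restrains pyruvate dehydrogenase and a PPAR alpha target, had 14 reads in shControl and 30 in shPPIL1, a ratio of 2.11 (1.08 to 4.30). ACSM1, a medium-chain acyl-CoA synthetase, had 27 and 7 reads (ratio 0.255, 0.0936 to 0.600). ACSBG1, an acyl-CoA synthetase of brain, adrenal gland and testis, had 14 and 3 reads (ratio 0.211, 0.0388 to 0.754). PPARGC1A, a coactivator of PPAR alpha, had 6 and 4 reads, and FGF21, a hormone of the fasted liver, 2 and 0. ABCD2, ACADL, ACSM4, CYP4A11, CYP4A22, OLAH and SLC27A6 had 0 reads in both libraries.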
